A study of Mus musculus with 9 samples.

Results

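Immunoglobulin variable segments were followed across 9 mouse breast tumours as the RNA counted at each segment's germline locus. The 122 segments described here are the rows of the count table whose symbol begins with Ighv (heavy chain), Igkv (kappa light chain) or Iglv (lambda light chain) and whose counts summed to at least 20 over the 9 tumours. They were 122 of 348 variable segment rows, in a table of 49585 rows. The total that chose them is itself a measured value, so how many pass it is a description and no test. Just inside it lay Ighv1-61 with 20 counts and Ighv1-85 with 22, and just outside it Ighv2-9-1 and Igkv4-86 with 19 counts each. There were ties, since Ighv1-14 also had 19 counts, and Igkv14-100 and Igkv4-50 were among further segments with 22.

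An antibody is made of heavy and light chains, and the end of each chain that meets the antigen begins with a variable segment. A developing B cell picks 1 such segment for each chain from a row of inherited ones and joins it by DNA rearrangement to a short joining segment (J), with a diversity segment between them in the heavy chain. The joined piece is transcribed together with a constant gene, such as Ighm or Igkc, and the cell's descendants keep the choice. Plasma cells, the secreting end stage of the B lineage, hold very large amounts of this RNA, so in bulk tissue the segments in use show which antibody RNAs are present and how evenly. Fewer cells carrying a segment and less of its RNA per cell cannot be told apart in such data.

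The tumours were spontaneous breast adenocarcinomas, labelled as breast tumor tissue, and RNA was sequenced from flash-frozen pieces. All 9 tumours carried K14-Cre, a Cre driver active in keratin 14-positive epithelium, together with the Trp53 genotype Trp53wm-R172H/fl, and Cre-dependent Cas9 was present as Rosa26LSL CAS9-P2A-EGFP/+. The label does not spell out wm, and R172H is an amino acid change in p53. Every tumour received adeno-associated virus (AAV) on days 0, 3 and 8. In 3 tumours it was AAV-Control and in 6 AAV-delta-mut-p53, whose name and the series title describe deletion of mutant p53. Tumours were collected when the animals met euthanasia criteria, and neither the interval to collection nor the animals' ages are given in the sources used here. The titles give AAV-delta-mut-p53 4 and 5 a single number with different endings, and whether they came from 1 mouse is not stated. Nothing says that the others came from separate animals, so the tests below measure the spread between these samples.

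Library totals ran from 26280250 to 30953250 counts in the controls and from 18581545 to 24567423 in the others. Trp53 stood at 39.3 to 48.6 CPM (counts scaled by library size and TMM factors) in the controls and at 13.1 to 41.5 CPM in AAV-delta-mut-p53, so the groups overlapped, and whether reads from an edited gene are lost from this count was not tested. The tumour AAV-delta-mut-p53 2 stood apart from the rest in tissue markers. It held 32.4 CPM of Epcam, an epithelial adhesion gene, where the other 8 tumours held at least 488 CPM, and 25443 CPM of Ttn, the giant protein of the muscle sarcomere. It also held 122 CPM of Ms4a1 (CD20 of B cells), where no other tumour passed 3.57 CPM. Results are therefore given with and without it where it bears on them.

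AAV-delta-mut-p53 tumours held more variable segment RNA than the controls. The 122 segments together had 128, 212 and 173 counts in the 3 controls, taken in replicate order here and below, and 254, 3675, 2060, 3204, 1033 and 1249 counts in the 6 others. As summed levels, these were 4.50, 7.07 and 6.85 CPM against 11.4, 170, 101, 179, 45.7 and 50.9 CPM. The groups did not overlap, although AAV-delta-mut-p53 1 lay much nearer to the controls than to the other 5 of its own group. The means were 6.14 ± 1.43 CPM (SD, n = 3) and 92.9 ± 69.3 CPM (SD, n = 6), a ratio of 15.1, which is 3.92 on the log2 scale. Without AAV-delta-mut-p53 2 the log2 ratio was 3.66. A sum over segments chosen by their counts is given no test.

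**Figure D1:**
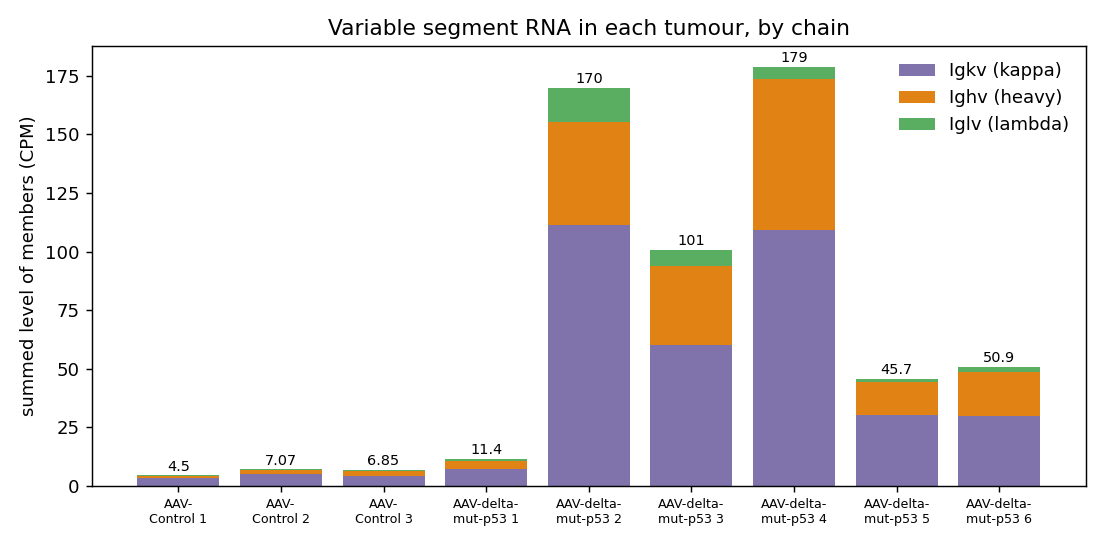
Stacked bars give the summed level of the 122 variable segments in each tumour in CPM, split into kappa, heavy and lambda segments, with the total above each bar. The 3 AAV-Control tumours stand at 4.50 to 7.07 CPM and the 6 AAV-delta-mut-p53 tumours at 11.4 to 179 CPM.

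All 3 chains were higher in AAV-delta-mut-p53. Heavy segments stood at a mean of 1.77 CPM in the controls and 29.7 CPM in AAV-delta-mut-p53, kappa segments at 4.001 and 58.0 CPM, and lambda segments at 0.364 and 5.16 CPM. Without AAV-delta-mut-p53 2 the 3 means of that group were 26.9, 47.3 and 3.29 CPM. The proportions between the chains overlapped between the 2 groups. Heavy segments took 25.8%, 26.4% and 33.5% of the variable counts in the controls, and 30.7%, 25.9%, 33.7%, 36.1%, 30.7% and 36.2% in the others. Kappa took 88.7% to 93.7% of light chain variable counts in the controls and 88.5% to 95.5% in the others. Mice are known to make mostly kappa light chains.

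The mouse loci lie apart in the genome, and their members differed in number. On the GRCm38 build the Ighv rows span 113572927 to 116010093 of chromosome 12, and 57 of 185 were members. The Igkv rows span 67555497 to 70704177 of chromosome 6, with 62 members of 160, and the 3 Iglv rows, all of them members, span 19085017 to 19260859 of chromosome 16. Rows annotated as genes supplied 119 of the members, which is 54.6% of 218 such rows. Rows annotated as pseudogenes supplied 3 of the members, Ighv3-2, Igkv2-107 and Ighv1-83, named for their annotation, which is 2.31% of 130. The 11988 counts of the members fell to Igkv for 62.6%, to Ighv for 31.7% and to Iglv for 5.69%.

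More counts bring more segments into view, so the number of segments was read in 2 ways. At full depth 43, 61 and 50 of the 122 segments had at least 1 count in the controls, and 65, 116, 93, 117, 99 and 103 in the others, with no overlap between the groups. At an equal depth of 128 variable counts, the total of the shallowest tumour, the expected numbers were 43.0, 49.1 and 45.2 in the controls. In AAV-delta-mut-p53 they were 49.98, 47.0, 45.2, 58.1, 53.9 and 52.5. The groups then overlapped, with means of 45.8 ± 3.07 (SD, n = 3) and 51.1 ± 4.73 (SD, n = 6). The difference of the means was 47.5 segments at full depth and 5.34 at equal depth, and AAV-delta-mut-p53 4 held the most segments by either count.

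Evenness was described by the effective number of segments, the inverse of the Simpson index corrected for the number of counts. It is the number of equally used segments that would give the same chance of drawing 1 segment in a pair of draws. It was 25.2, 37.8 and 33.4 in the controls and 34.1, 16.7, 18.5, 32.3, 34.2 and 26.1 in the others. AAV-delta-mut-p53 2 and 3 lay below every control, and the other 4 lay within the control range, so the group means of 32.1 ± 6.43 (SD, n = 3) and 27.0 ± 7.88 (SD, n = 6) differed by less than either group's spread. Shannon evenness, the entropy of the shares over its maximum, ran from 0.899 to 0.919 in the controls and was 0.899, 0.768, 0.797, 0.867, 0.871 and 0.846 in the others. The same 2 tumours were lowest by that measure, but its maximum rises with the number of segments detected, so its values are not at equal depth.

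**Figure D2:**
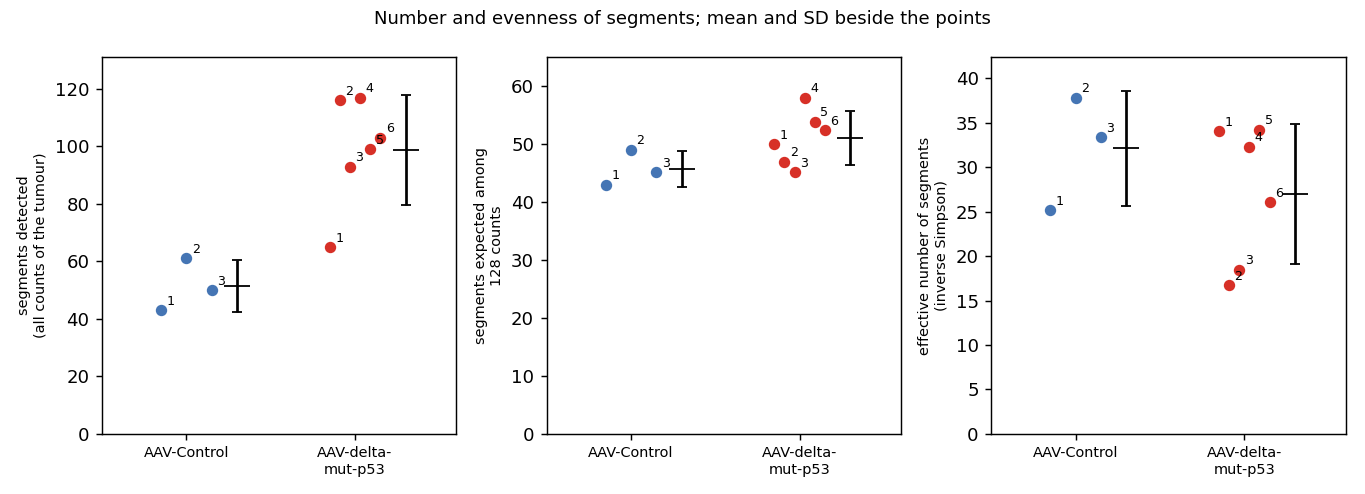
Points are tumours, marked by replicate number within their group, for the number of segments detected at full depth (left), the number expected among 128 counts (middle) and the effective number of segments (right), with the group mean and SD beside the points. The groups separate at full depth and overlap at equal depth and in the effective number, where AAV-delta-mut-p53 2 and 3 are lowest at 16.7 and 18.5.

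The uneven use in AAV-delta-mut-p53 2 and 3 was present in both main chains. Within Ighv the effective number was 6.80 and 7.39 in these 2 tumours, against 10.6 to 20.4 in the controls and 12.9 to 23.3 in the other 4. Within Igkv it was 9.09 and 10.1, against 14.7 to 24.8 in the controls and 11.4 to 19.6 in the other 4. Only 7 segments made up 50% of the variable counts in each of these 2 tumours. In the controls 8, 11 and 11 did so, and 11, 17, 14 and 12 did so in AAV-delta-mut-p53 1, 4, 5 and 6. To reach 90%, 56 and 47 segments were needed in these 2 tumours, 56 to 68 in AAV-delta-mut-p53 4, 5 and 6, 43 in AAV-delta-mut-p53 1 and 31 to 40 in the controls, a number that rises with the counts of a tumour.

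**Figure D3:**
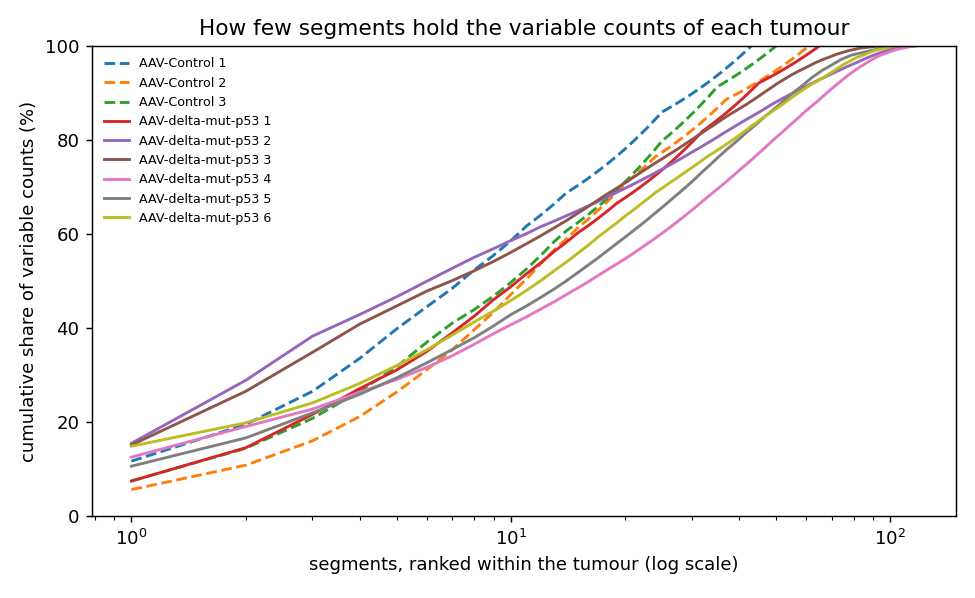
Lines give the cumulative share of variable counts in percent against the number of segments, ranked from the most used within each tumour (log scale), with controls dashed. AAV-delta-mut-p53 2 and 3 reach 50% with 7 segments each, and AAV-delta-mut-p53 4 needs 17.

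The leading segment differed from tumour to tumour. There were 8 distinct leading segments in 9 tumours, and 8 of the 9 tumours were led by a kappa segment. All shares below are of a tumour's variable counts, with exact (Clopper-Pearson) 95% intervals that cover counting error only, since many reads can come from 1 clone. Segments differ little in exonic length, from 313 to 461 bases, and all 9 tumours kept the same leading segment when counts were divided by length.

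In the controls the leaders rested on few counts. Igkv1-117 led AAV-Control 1 with 15 counts (11.7%, interval 6.71 to 18.6), Igkv5-43 led AAV-Control 2 with 12 (5.66%, interval 2.96 to 9.68), and Igkv3-7 led AAV-Control 3 with 13 (7.51%, interval 4.06 to 12.5). The segments ranked next were close behind. They were Igkv4-59 with 10 counts, then Igkv8-30 and Ighv3-6 with 9 each, in AAV-Control 1. Igkv8-21, Igkv6-13, Ighv3-6 and Iglv1 had 11 counts each in AAV-Control 2, and Iglv1 had 12 and Igkv10-94 had 11 in AAV-Control 3. The intervals of these segments overlap within each tumour, so no control had a leader set apart by its counts. The same held for AAV-delta-mut-p53 1, where Ighv8-8 had 19 counts (7.48%, interval 4.56 to 11.4) and Igkv9-124 and Igkv12-46 had 18 each.

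The other 5 tumours had leaders with far more counts. In AAV-delta-mut-p53 2, Igkv17-127 took 570 counts (15.5%, interval 14.4 to 16.7), Igkv6-15 took 492 (13.4%) and the heavy segment Ighv1-55 took 345 (9.39%). In AAV-delta-mut-p53 3, Igkv12-41 took 312 counts (15.1%, interval 13.6 to 16.8), the heavy segment Ighv1-66 took 235 (11.4%) and Igkv17-127 took 171 (8.30%). In these 2 tumours a single heavy segment therefore ranked close to the leading kappa segments. Ighv1-55 made up 36.3% of the heavy counts of AAV-delta-mut-p53 2, and Ighv1-66 made up 33.9% of those of AAV-delta-mut-p53 3.

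In AAV-delta-mut-p53 4, 5 and 6 a kappa segment led with no heavy segment of like size. Igkv3-2 took 403 counts in AAV-delta-mut-p53 4 (12.6%, interval 11.4 to 13.8), ahead of Igkv1-110 with 208 (6.49%) and Ighv1-53 with 119 (3.71%). Igkv3-2 also led AAV-delta-mut-p53 5, with 110 counts (10.6%, interval 8.83 to 12.7), ahead of Igkv14-111 with 62 (6.00%) and Igkv8-30 with 55 (5.32%). In AAV-delta-mut-p53 6, Igkv8-27 took 186 counts (14.9%, interval 13.0 to 17.0), followed by Ighv2-6 with 62 (4.96%) and Igkv1-110 with 53 (4.24%). Their most used heavy segments, Ighv1-53, Ighv3-6 and Ighv2-6, made up 10.3%, 10.4% and 13.7% of the heavy counts. The leading share was 8.30 ± 3.10% (SD, n = 3) in the controls and 12.7 ± 3.17% (SD, n = 6) in AAV-delta-mut-p53, and the groups overlapped.

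A leader of 1 tumour was mostly a minor segment elsewhere. Igkv17-127 was at 15.5% in AAV-delta-mut-p53 2 and 8.30% in AAV-delta-mut-p53 3, and at 1.16% or less in the other 7 tumours. Igkv12-41 was at 15.1% in AAV-delta-mut-p53 3 and at 1.15% or less in the rest. Igkv8-27 was at 14.9% in AAV-delta-mut-p53 6, at 2.36% in AAV-Control 2 and at 0.394% or less in the rest. Igkv3-2 led 2 tumours, at 12.6% of AAV-delta-mut-p53 4, 10.6% of AAV-delta-mut-p53 5 and 3.76% of AAV-delta-mut-p53 6, with 1.56% or less elsewhere.

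**Figure D4:**
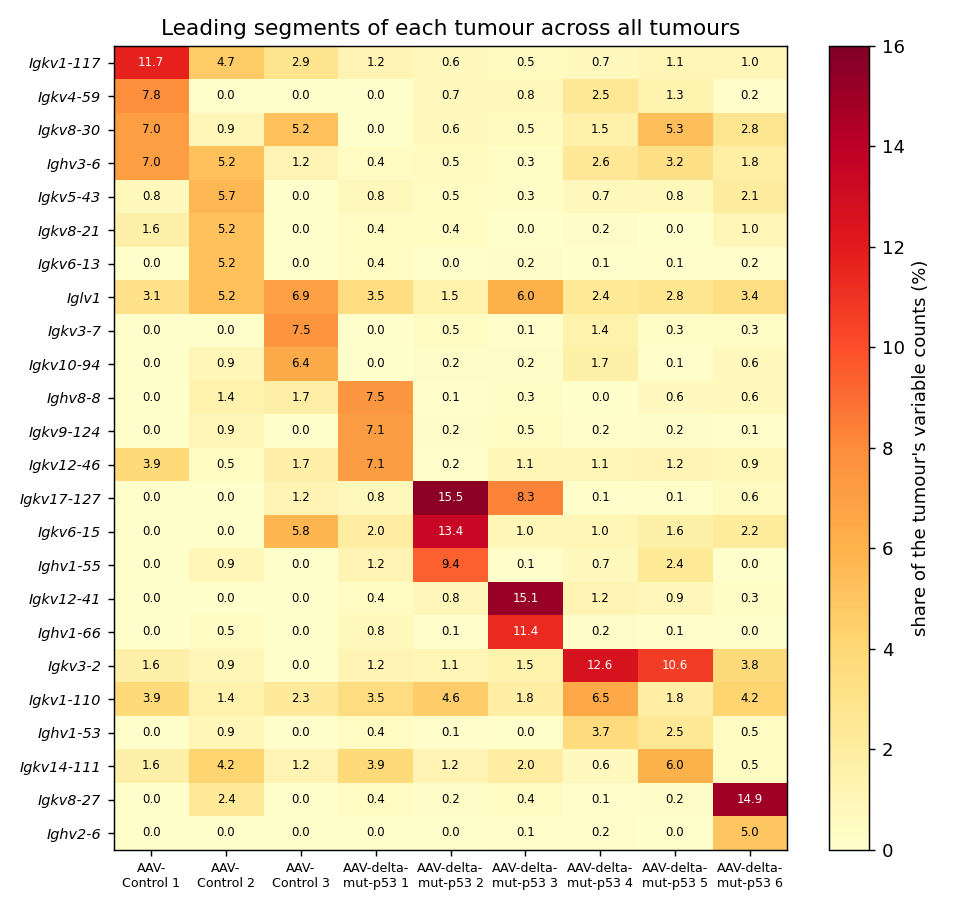
Each cell gives the share of a tumour's variable counts in percent for the 3 most used segments of each tumour (ties kept), in rows, across all 9 tumours, in columns. Most rows are dark in 1 tumour, such as Igkv8-27 at 14.9% in AAV-delta-mut-p53 6, while Igkv3-2 is high in AAV-delta-mut-p53 4 and 5.

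Many members had most of their RNA in 1 tumour. In 61 of the 122 a single tumour held more than 50% of the CPM summed over the 9 tumours, and in 18 it held more than 75%. These 18 were split over AAV-delta-mut-p53 2 (7 segments), 4 (4 segments), 6 (4 segments) and 3 (3 segments). AAV-delta-mut-p53 4 had the highest CPM of the 9 tumours for 66 members and AAV-delta-mut-p53 2 for 31. At the other end, 12 members had counts in all 9 tumours, 17 in all 3 controls and 33 in none of the controls. A member needed 20 counts in all, which the shallow controls could seldom supply alone, so a higher level in AAV-delta-mut-p53 is favoured by the choice. The mean CPM was higher there for 121 members, and Igkv6-13 alone was lower, with 11 of its counts in AAV-Control 2.

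The families of like segments gave a second view of usage. Ighv1, the family with the most rows in the table, supplied 28 members. It took 21.2%, 30.4% and 32.8% of heavy counts in the controls and 34.6%, 67.9%, 63.4%, 51.1%, 51.7% and 29.4% in AAV-delta-mut-p53. Only AAV-delta-mut-p53 6 fell within the control range, and the highest 2 values belong to the tumours whose leading heavy segments were Ighv1-55 and Ighv1-66, both of this family. Ighv5, with 6 members, took 15.2%, 21.4% and 17.2% in the controls and 14.1%, 1.37%, 7.06%, 6.56%, 7.89% and 14.2% in the others, so every AAV-delta-mut-p53 tumour lay below the controls. The control shares rest on 33 to 58 heavy counts in a tumour. Of the families, Ighv1 and Ighv5 were picked out after their values had been seen.

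Among kappa families single tumours had large shares. Igkv3 took 31.9% and 22.3% of kappa counts in AAV-delta-mut-p53 4 and 5, the tumours led by Igkv3-2, and 3.70% to 13.2% in the other AAV-delta-mut-p53 tumours, against 4.14% to 17.6% in the controls. Igkv8 took 32.7% in AAV-delta-mut-p53 6 and 3.07% to 9.25% in the rest of that group, against 12.7% to 16.9% in the controls, so 5 of the 6 AAV-delta-mut-p53 tumours lay below every control. Igkv12 took 28.1% in AAV-delta-mut-p53 3 and 20.4% in AAV-delta-mut-p53 1, against 2.94% to 10.1% in the controls. These families were likewise chosen after their values had been seen, and each held a leading segment.

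Lambda segments stood out in AAV-delta-mut-p53 2. Iglv1 was the main lambda segment in the controls, with 4, 11 and 12 counts, and in the others it had 9, 55, 124, 78, 29 and 42. Iglv2 and Iglv3 are named here after their values had been seen. Iglv2 had 121 counts in AAV-delta-mut-p53 2 and at most 3 in any other tumour, with 0 in all 3 controls. Iglv3 had 138 counts in AAV-delta-mut-p53 2 and at most 18 in any other. The lambda constant genes were high with them: Iglc2 stood at 25.4 CPM and Iglc3 at 11.8 CPM in that tumour and at no more than 1.34 and 1.56 CPM in the other 8. Iglv1 and Iglv2 are close copies of each other, as are many Ighv1 and Igkv4 segments, and reads that match several copies may be divided among them or dropped by the counting, which leaves single values uncertain.

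Position in the locus was compared by the share of counts in the stretch nearer to the J segments. For Ighv this stretch, up to the middle of the locus as measured from the J segments, gave 84.8%, 67.9% and 56.9% of heavy counts in the controls. It gave 39.7%, 31.7%, 53.03%, 55.7%, 62.5% and 76.3% in AAV-delta-mut-p53, and the groups overlapped. For Igkv the shares were 54.9% to 56.6% in the controls and 44.5% to 70.1% in the others. The lowest value in each chain was that of AAV-delta-mut-p53 2, whose leaders Ighv1-55 and Igkv17-127 lie in the far stretch.

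The usage profiles of AAV-delta-mut-p53 4 and 5 were more alike than those of any other pair. Likeness was measured by Bray-Curtis similarity, the share of usage that 2 tumours have in common. Among the 5 tumours with at least 1000 variable counts, the pair had 63.7% in common, and the other 9 pairs had 34.9% to 49.2% with a median of 39.7%. The Morisita index, which corrects for the number of counts, was 0.80 for the pair and 0.20 to 0.42 for the others. Part of this likeness is Igkv3-2, which led both. With each tumour's leading segment left out, the pair had 60.2% in common and the others 35.9% to 54.0%, whereas by the Morisita index the pair (0.64) no longer stood above AAV-delta-mut-p53 4 and 6 (0.64) by more than rounding. The pair shared 4 of its 10 most used segments, as did AAV-delta-mut-p53 5 and 6. These are the 2 tumours whose titles hold the same number, and the comparison is a description with no test.

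**Figure D5:**
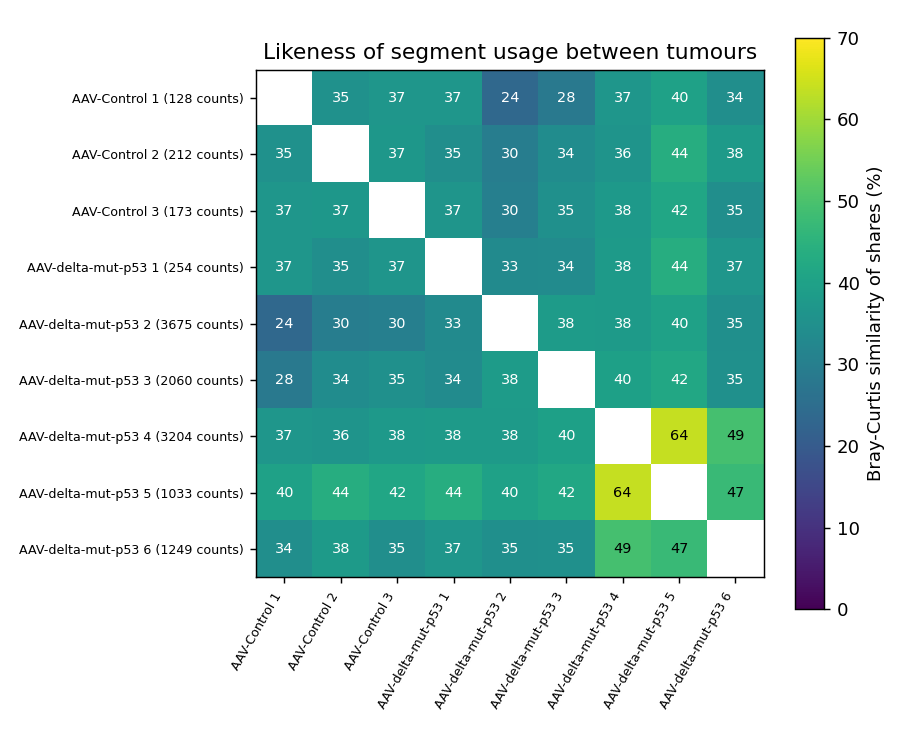
Cells give the Bray-Curtis similarity of segment shares in percent for all 36 pairs of tumours, with each tumour's variable counts beside its name. The pair AAV-delta-mut-p53 4 and 5 is highest at 63.7%, followed by AAV-delta-mut-p53 4 and 6 at 49.2%.

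Single segments were tested between the groups within the fit over all genes. Of the 122 members 44 passed the filter on low counts and 78 did not. The filter keeps rows with enough counts in at least 3 tumours. It dropped segments that were low throughout and segments that had enough counts in only 1 or 2 tumours. Among the latter were Igkv17-127, Ighv1-66, Igkv8-27, Ighv1-53 and Ighv2-6. None of the 44 reached the level that the filter asks for in all 3 controls, and 43 reached it in at least 3 AAV-delta-mut-p53 tumours. They thus passed through the group where they are high, which fixes most of their direction, so the counts and the median below are descriptions. All 44 had a higher estimate in AAV-delta-mut-p53. Their median log2 fold change was 3.72, against 0.09 over all 19606 genes tested. It was also 3.72 with the 3 that had no control counts set to their pooled ratio at 3 assumed control counts. No member passed a false discovery rate (FDR) of 0.05 by edgeR's quasi-likelihood test with Benjamini-Hochberg adjustment (0 of 44, lowest FDR = 0.677), and none of the 19606 genes did (0.0%). At an unadjusted p under 0.05, 35 of the 44 were higher, where 3.82% of all genes were higher, and 0 were lower, where 3.26% of all genes were. Without AAV-delta-mut-p53 2 the count was 20 of 28 tested.

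DESeq2 called 9 members higher at its adjusted threshold of 0.05 and 0 lower, where 0.333% of all genes with an adjusted p were called higher and 0.249% lower. At its unadjusted p under 0.05, 38 of the 44 were higher, where 6.42% of all genes were. It gave 13 of the 44 no adjusted p. Over all 122 members, tested or not, 24 had no control as high as the lowest AAV-delta-mut-p53 tumour, and 0 the reverse. Among the 24997 rows of the table that reach the same total of 20 counts, 1.5% were higher in this way and 1.49% lower. The members share their source cells and the choice by total, so these counts are not independent of each other.

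The 8 tested members with the smallest p were all kappa segments, as were most of the tested members. Igkv16-104 had 0 counts in all 3 controls and 3, 34, 8, 16, 7 and 19 in the others. With 3 control counts assumed, the segment had a ratio of 18.8 over the counts pooled within groups. At 0 control counts it had a lower counting limit of 14.9 for that ratio. Its edgeR quasi-likelihood p was 0.000717 (adjusted 0.677), the smallest of the members, and its fitted log2 fold change is no bound because the controls were at 0. Igkv5-39 had 1, 1 and 0 counts against 2, 18, 18, 32, 7 and 27, a log2 fold change of 4.86 (SE 1.13). Its lowest treated tumour was AAV-delta-mut-p53 1, as for Igkv16-104.

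Of these 8 segments, Igkv1-110 and Igkv10-96 had counts in every tumour. Igkv1-110 stood at 0.176, 0.100 and 0.159 CPM in the controls and at 0.405, 7.85, 1.86, 11.6, 0.841 and 2.16 CPM in the others, a log2 fold change of 4.78 (SE 1.24), and 4.15 without AAV-delta-mut-p53 4. Igkv10-96 stood at 0.211, 0.133 and 0.356 CPM in the controls and at 0.629, 0.785, 3.86, 2.73, 1.59 and 1.59 CPM in the others, a log2 fold change of 2.97 (SE 0.77). The groups did not overlap for either segment. DESeq2 gave adjusted p-values of 0.00243 and 0.0175, where edgeR's quasi-likelihood test gave 0.677 for both.

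Igkv3-2 had the most uneven values of these 8. It had 2, 2 and 0 counts in the controls and 3, 39, 30, 403, 110 and 47 in the others, so the groups did not overlap by CPM, at 0.0703 at most against 0.135 at least, and its log2 fold change was 6.71 (SE 1.77), and 5.31 without AAV-delta-mut-p53 4. The remaining 3 of the 8 were Igkv12-44, Igkv6-32 and Igkv4-57, with log2 fold changes of 3.74, 5.45 and 5.19. With each tumour left out, as far as the segments were still tested, these ran from 3.25 to 4.51, 4.99 to 7.18 and 4.72 to 6.91. The highest value came without AAV-Control 2 for Igkv12-44, and without AAV-Control 3 for Igkv6-32 and Igkv4-57. AAV-Control 3 held the only control count of Igkv6-32 and of Igkv4-57, so their highest values are no bound. The control counts of the 3 segments were 3, 1 and 1 in all. Pooled ratios were 14.2 (counting interval 4.66 to 70.7) for Igkv12-44 and 49.8 (8.68 to 1992) for Igkv4-57. No tested member was lower, a direction that the filter leaves little room for.

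Other leading segments show how far 1 tumour can set a level. Igkv12-41 had 0 counts in the controls and 1, 31, 312, 37, 9 and 4 in the others. Its pooled ratio was 84.9 with 3 control counts assumed, and the lower counting limit at 0 control counts was 68.7. AAV-delta-mut-p53 3 held 78.8% of its summed CPM, so the ratio does not describe each tumour of the group. Igkv17-127 had 2 control counts, both in AAV-Control 3, and 2, 570, 171, 4, 1 and 7 in the others, a pooled ratio of 244 with a counting interval of 67.3 to 2019, and its groups overlapped. Igkv6-15 had 0, 0 and 10 counts against 5, 492, 20, 33, 17 and 28. Its log2 fold change was 5.11 (SE 2.001), 2.92 without AAV-delta-mut-p53 2, 4.51 without AAV-Control 1 and 9.76 without AAV-Control 3, which held all its control counts. Iglv1, the most abundant lambda segment, gave 3.04 (SE 0.91) as its log2 fold change, and its groups overlapped because AAV-delta-mut-p53 1 (0.405 CPM) lay below AAV-Control 3 (0.475 CPM). Igkv1-117, the leader of AAV-Control 1, had 15, 10 and 5 counts against 3, 23, 11, 22, 11 and 12, a log2 fold change of 0.88 (SE 0.70).

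The constant genes, which are spliced to the variable segments, were also higher in AAV-delta-mut-p53. Of 11 tested constant genes all 11 had a higher estimate, with a median log2 fold change of 3.98. None passed edgeR's FDR. An unadjusted p under 0.05 was found for 9 (3.82% of all genes, higher), a DESeq2 call for 7 (0.333%), and groups that did not overlap for 5 of the list (1.5%). The 9 include Iglc2 and Iglc3, which were far higher in AAV-delta-mut-p53 2 than in any other tumour. These counts and the median of the list include AAV-delta-mut-p53 2 and are not given without it. Igkc, the kappa constant gene, stood at 14.4, 19.1 and 17.4 CPM in the controls and at 26.2, 347, 207, 369, 68.0 and 82.8 CPM in the others, and the groups did not overlap. Counts of Igkv members per Igkc count were 0.218, 0.253 and 0.232 in the controls and 0.278, 0.321, 0.291, 0.295, 0.443 and 0.362 in the others, and the groups did not overlap. Only members enter this ratio. Over the 3 chains they held 84.8% to 94.6% of all variable segment counts in the controls and 88.8% to 96.9% in the others. The choice of members can thus lower the control ratios more.

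The most used heavy constant gene varied between tumours as the segments did. Ighm, the constant gene of IgM, made up 78.2% of heavy constant counts in AAV-delta-mut-p53 2, 49.9% in 4 and 49.6% in 5. Ighg1, of IgG1, made up 68.6% in AAV-delta-mut-p53 3, and Ighg2b, of IgG2b, 39.7% in AAV-delta-mut-p53 6. In AAV-delta-mut-p53 1 the leader was Ighm at 34.6%, and in the controls it was Ighm (53.8%), Igha of IgA (38.4%) and Ighg1 (34.1%). The 2 tumours with the least even segment use thus also had the largest share in a single heavy constant gene, and that gene differed between them.

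Genes of the cells that carry these RNAs were read beside them. Jchain, which links IgM and IgA units in plasma cells, stood at 3.86, 4.67 and 3.60 CPM in the controls and at 3.55, 45.6, 12.7, 38.7, 7.26 and 9.62 CPM in the others. Of 13 tested plasma cell genes 10 had a higher estimate and 3 a lower one (median 1.06). By edgeR, 4 were higher at an unadjusted p under 0.05 (3.82% of all genes, higher), and none passed the FDR. Some genes of this list were abundant in the controls, where Jchain was low. Txndc5 stood at 189 to 466 CPM there, Sdc1 at 129 to 160 CPM and Xbp1, among the 4, at 84.5 to 92.3 CPM. What part of their RNA came from other cells was not tested. Of 14 tested B cell genes 13 were higher (median 2.63). At the same unadjusted p 5 were higher (3.82% of all genes, higher), and none passed the FDR. For both lists the counts and the medians include AAV-delta-mut-p53 2 and are not given without it. The summed level of the B cell genes was 23.6 to 39.1 CPM in the controls, 572 CPM in AAV-delta-mut-p53 2 and 22.3 to 59.3 CPM in the other 5. Outside AAV-delta-mut-p53 2 the summed B cell level thus overlapped the control range, whereas the summed segment level did not.

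Joining segments gave a further difference of AAV-delta-mut-p53 2. Reads on Ighj, Igkj and Iglj rows numbered 5, 1 and 10 in the controls and 2, 623, 21, 25, 20 and 1 in the others. AAV-delta-mut-p53 4, with nearly as many variable counts as AAV-delta-mut-p53 2 (3204 against 3675), had 25. The part that muscle, B cells or other tissue in the piece of AAV-delta-mut-p53 2 had in its segment values was not tested. Muscle genes summed to 44089 CPM there and to 48.3 to 436 CPM in the other 8 tumours, and mammary epithelium genes to 367 CPM there and to 1771 to 5515 CPM in the others. Adipocyte genes summed to 698 CPM there and to 30.5 to 168 CPM elsewhere, and T cell genes to 235 CPM there and to 32.8 to 123 CPM elsewhere.

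Genes that attract or change B cells were listed as well. Cxcl13, a chemokine that draws B cells, stood at 0.457, 0.467 and 0.396 CPM in the controls and at 6.61, 6.14, 17.0, 7.98, 1.86 and 4.56 CPM in the others, with a log2 fold change of 4.05 (SE 0.76). It passed DESeq2's adjusted threshold (4.84e-06) and not edgeR's (0.677). AAV-delta-mut-p53 1, which had little segment RNA, had 6.61 CPM of it. Of the 6 tested genes in its list 5 had a higher estimate. The other was Cxcl12, a chemokine that holds B-lineage cells in bone marrow, named after its values had been seen. It stood at 162 ± 32.9 CPM (SD, n = 3) in the controls and 47.3 ± 57.5 CPM (SD, n = 6) in the others, a log2 fold change of -1.78 (SE 0.80), and the groups overlapped, with AAV-delta-mut-p53 2 at 155 CPM. By edgeR's quasi-likelihood test its unadjusted p was 0.0499 and its adjusted p 0.677. Rag1 of the recombinase stood at 0.0885 CPM or less in all 9 tumours. Of 8 tested germinal centre genes 4 were higher and 4 lower, and of 5 tested recombination genes 4 were higher and 1 lower, none past edgeR's FDR.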

How the data were processed

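Libraries that keep the strand were made from the total RNA of 9 tumours, per the labels' protocols. Raw gene counts were deposited as whole numbers in 1 table, 1 column per tumour, and 0 columns lacked a sample. The submitters' processing notes list STAR 2.6.0b, DESeq2 and GRCm38. For the assignment of reads to genes, the program, strand setting and annotation are not stated there or in the labels. Symbols were found for 49326 of 49585 rows, 43749 with their version. Positions and gene types are from GENCODE mouse release 21, which may not be the release counted with.

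The members, the related gene lists and the tests were chosen with earlier results of these data known. Named segments are the 3 most used of each tumour, the leading one of each chain, the 8 tested with the smallest p in each direction, those over 10% of a tumour, and neighbours of the total of 20. Pseudogene members, Iglv2 and Iglv3 were named in addition. Of the listed genes a part is named, and some are not reported here.

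All genes passing filterByExpr (minimum count of 10) entered edgeR 4.0.16 under R 4.3.3 (TMM, 2-sided quasi-likelihood test, Benjamini-Hochberg at 0.05, no covariate). DESeq2 1.42.0, other scaling, filters and minimum totals, each tumour left out, and the pair with 1 title number summed were alternatives. The Morisita index, leaders left out, counts per length and rows with no minimum were added after the data had been seen. Reads were not reassembled into joined chains, so clones were not analysed here. No 2 libraries agreed within sampling noise (lowest chi-square per degree of freedom 117).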

Additional observations from a re-analysis of the deposited data

Results flagged for a closer look

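Within AAV-delta-mut-p53, 1 tumour lay far from the nearest other by a gap test (Dixon's ratio at 95%) in 17 of 46 values, 15 of them among 30 named segments. Chance flags about 1 in 20 groups of values chosen without regard to them. Many of these segments were named for a high share in 1 tumour, so that rate does not apply to them and their flags restate the choice. The tumours concerned differed by segment.

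AAV-delta-mut-p53 4 stood apart for 7 segments. They were Igkv3-2 (22.5 CPM, next 4.87), Ighv1-53 (6.64 CPM, next 1.15), Ighv3-6 (4.58 CPM, next 1.46), Igkv4-59 (4.41 CPM, next 1.20), Igkv10-94 (3.01 CPM, next 0.326), Igkv3-7 (2.51 CPM, next 0.785) and Igkv12-44 (1.28 CPM, next 0.537). AAV-delta-mut-p53 2 stood apart for Igkv17-127 (26.3 CPM, next 8.35), Igkv6-15 (22.7 CPM, next 1.84) and Ighv1-55 (15.9 CPM, next 1.28). It also did so for J segment counts (623, next 25) and Ms4a1 (122 CPM, next 3.57). AAV-delta-mut-p53 3 stood apart for Igkv12-41 (15.2 CPM, next 2.06) and Ighv1-66 (11.5 CPM, next 0.447), AAV-delta-mut-p53 6 for Igkv8-27 (7.58 CPM, next 0.416) and Ighv2-6 (2.53 CPM, next 0.279), and AAV-delta-mut-p53 1 for Ighv8-8 (0.854 CPM, next 0.342).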

How the results depend on the processing

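The log2 ratio of the summed level (3.92) ran from 3.62 to 4.15 when each tumour was left out and from 3.83 to 4.06 over other scalings and member rules and with the pair summed. The segments called were 0 by edgeR and 9 by DESeq2. The count at an unadjusted p under 0.05 (35) was 82 of 122 tested with no filter and 1 of 1 tested with a minimum count of 50. It ran from 19 to 42 with each tumour left out, at 20 of 28 without AAV-delta-mut-p53 2, 23 of 30 without 3 and 19 of 24 without 4, where fewer segments passed the filter. Segments whose groups did not overlap (24) ran from 25 to 43 with each tumour left out, the highest without AAV-delta-mut-p53 1, and were 18 with a member minimum of 50 counts. Leaving out a tumour can only keep or raise this number, and a higher minimum can only keep or lower it. These values are therefore no measure of its stability. The difference in leading share (4.41 percentage points) was 7.74 within Igkv alone and 1.82 within Ighv alone, and the cause was not tested. Of 20 named segments with a fit, 260 alternative fits kept the direction, with a lowest log2 fold change of 0.59. Tested segments mostly passed the filter through AAV-delta-mut-p53, and the fits reuse the same tumours. A reversal thus had little room, and this count is a description. With each tumour left out, the difference ran from -8.63 to -2.29 in effective number (0.70 within Ighv alone, against -5.15 over all members) and from 3.94 to 6.99 in segments at equal depth. No paired analysis was possible because the labels give no replicate numbers shared between the groups. The low variable counts of the controls limit their shares.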
